A study of Mus musculus with 6 samples.

Results

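The keratin genes encode the intermediate filament proteins of epithelial cells. They were followed here in spheres grown from mouse mammary tumors, as the mouse genes whose symbol is Krt with a number and at most 1 further letter, found through the RefSeq accession of each non-control probe. The array carried 64 probes for 53 such genes, of 55681 probes and 20660 genes with a symbol in all, and 1 of the 54 keratin symbols of the RefSeq table, Krt83, had no probe. Spheres, clusters of cells grown in suspension, came from mammary tumors of FRS2beta knock-out mice (knockout, 3 arrays) and of mice heterozygous for FRS2beta (hetero, 3 arrays), and both groups were cultured with B27 supplement, EGF, bFGF and heparin. FRS2beta, encoded by Frs3, is an adaptor of receptor tyrosine kinase signalling. The hetero mice thus carry 1 altered copy of the gene, and no wild-type spheres were analysed here. Strain, age, the driver of the tumors, and whether replicates came from separate animals, tumors or cultures are not given in the sources used here, so the p-values speak of the spread among these arrays alone, and that spread may be technical.

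A keratin filament is built from equal parts of a type I (acidic) and a type II (basic) keratin, and most epithelia make a characteristic pair. Simple epithelia, among them the luminal cells of the mammary gland, use Krt8 with Krt18 and often Krt7 and Krt19. Basal cells of stratified epithelia and of the mammary gland use Krt5 with Krt14, wounded or squamous epithelium adds Krt6, Krt16 and Krt17, and the hair keratins serve the hair shaft and its root sheath. In the mouse, type I genes lie together on chromosome 11 and type II genes on chromosome 15, except for the type I gene Krt18, which lies beside Krt8.

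Levels are given as scaled log2 signals, in which 0 is the 75th percentile of all probes on the array, 1 unit is a doubling, and levels of different probes are not comparable. Across genes, the correlation was 0.995 to 0.998 between arrays of 1 genotype and 0.966 to 0.971 between genotypes. The 75th percentile was 464.7 to 486.7 units of processed signal on knockout arrays and 403.5 to 415.8 on hetero arrays. No keratin spot was saturated. The single probe for Frs3 was well above background on 0 of 3 knockout arrays and 1 of 3 hetero arrays (-7.73 ± 0.32 and -5.99 ± 1.33, SD, n = 3 each), so it does not check the genotype labels.

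Most tested keratins of simple and of stratified epithelium were higher in knockout spheres by 3.47 to 17.0 times, whereas most hair keratins were not measurable or gave no call. Of the 53 genes, 31 were tested, having a probe well above background on at least 3 of the 6 arrays. Among these, 16 (51.6%) passed an adjusted p of 0.05 as higher in knockout spheres and 3 (9.68%) as lower, against 27.9% and 32.5% of all 15838 genes tested. Together these 19 calls (61.3%) stand beside calls for 60.4% of all genes, so calls as such were about as common among keratins as elsewhere. All 16 rises were at least 2-fold, against 6.59% of all genes. A rise of at least 4-fold was reached by 15 of the 31 (48.4%, against 3.02% of all genes) and one of at least 8-fold by 7 (1.41% of all genes). These fold counts depend on the background correction. With normexp correction Krt13, Krt15, Krt17, Krt71 and Krt81 fell short of 4-fold, and Krt15 also of 2-fold. Krt6a, Krt23 and Krt42 then fell short of 8-fold. The median log2 fold change, knockout over hetero, was 1.79 over the tested keratins and -0.03 over all genes tested. The genotypes did not overlap in 19 of the 31 keratins (68.9% of all genes). By single probes, 18 of the 34 tested keratin probes were higher and 3 lower, against 19.4% and 27.6% of all 35427 probes kept. All 19 called keratins were above background on all 6 arrays, as 25 of the 31 were.

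By class, 4 of the 5 simple keratins and 8 of the 12 tested stratified keratins were higher and 0 were lower, with median log2 fold changes of 3.44 and 2.07. Of 9 tested hair keratins, 2 were higher (22.2%) and 1 lower (11.1%), with a median of -0.06. Of 5 tested keratins outside these classes 2 were higher and 2 lower (40% each). Of all genes tested, 27.9% were higher and 32.5% lower, so the share of hair keratins called higher at any fold was near that of all genes. Both rises of hair keratins were at least 4-fold (22.2%, against 3.02% of all genes), though not with normexp correction. Type I and type II keratins were alike in these counts, with 8 of 16 and 8 of 15 higher. The plot of signals by array shows every tested keratin.

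**Figure D1:**
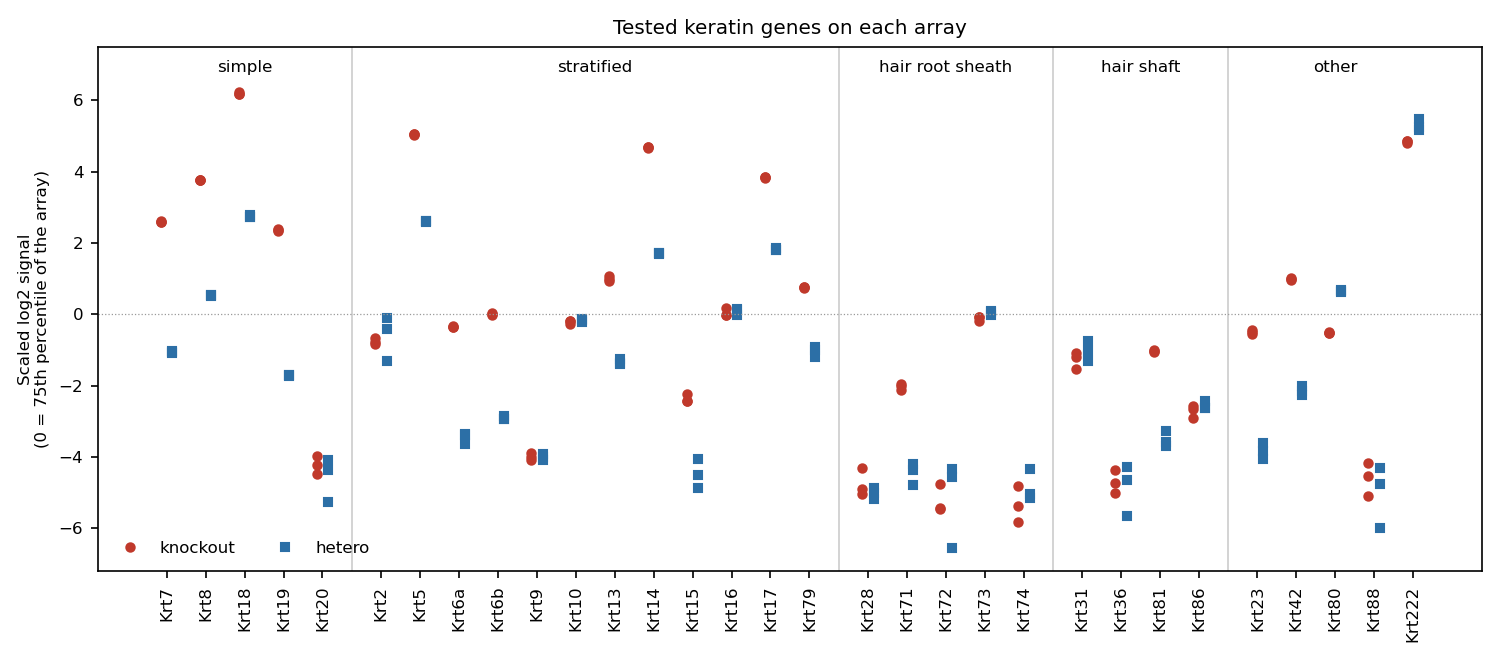
Scaled log2 signal of the 31 tested keratins on each array, grouped by class, with knockout arrays as red circles and hetero arrays as blue squares and 0 at the 75th percentile of the array. The knockout and hetero points of Krt7, Krt8, Krt18 and Krt19 lie more than 3 units apart, while those of Krt10 and Krt16 overlap.

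RefSeq gives a promoter window for 36 of the 53 keratins on GRCm38.p6, of which the 250 bases before the gene start were searched on both strands for the letters TATAAA (the TATA box), ATAAAA, TGA and TCA split by any 1 base (AP-1), GGGCGG (Sp1) and GCCNNNGGC (AP-2). TATAAA and ATAAAA can overlap, as can Sp1 and AP-2 matches, and ATAAAA was added after the windows were read. Windows of 6 genes are shown because they include a luminal, a basal and a mucosal keratin that rose beside an epidermal and a root sheath keratin that did not. Each is written 5′ to 3′ along the gene's strand and ends at the base before the start, with matches in capitals. The windows lie at chr15:101412153-101412402, plus strand (Krt7), chr15:102027966-102028215, plus strand (Krt18), chr15:101712906-101713155, minus strand (Krt5), chr11:100121567-100121816, minus strand (Krt13, the farther upstream of its 2 starts), chr11:99389365-99389614, minus strand (Krt10) and chr15:101802361-101802610, minus strand (Krt73).
Krt7: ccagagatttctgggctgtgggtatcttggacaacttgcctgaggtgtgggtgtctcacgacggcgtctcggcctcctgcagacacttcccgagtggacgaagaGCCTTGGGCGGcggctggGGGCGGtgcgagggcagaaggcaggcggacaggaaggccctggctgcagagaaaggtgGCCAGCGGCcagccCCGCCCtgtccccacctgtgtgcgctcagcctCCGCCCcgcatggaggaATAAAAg
Krt18: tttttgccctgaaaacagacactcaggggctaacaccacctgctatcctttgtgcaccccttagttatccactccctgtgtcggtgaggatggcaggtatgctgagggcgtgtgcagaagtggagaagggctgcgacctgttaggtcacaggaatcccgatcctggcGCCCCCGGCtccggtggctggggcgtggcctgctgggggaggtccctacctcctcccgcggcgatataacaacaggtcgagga
Krt5: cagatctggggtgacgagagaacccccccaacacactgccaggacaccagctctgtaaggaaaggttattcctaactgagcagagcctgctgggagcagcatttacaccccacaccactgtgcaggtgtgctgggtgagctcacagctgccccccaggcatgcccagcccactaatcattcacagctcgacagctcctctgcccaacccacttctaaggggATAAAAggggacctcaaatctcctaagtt
Krt13: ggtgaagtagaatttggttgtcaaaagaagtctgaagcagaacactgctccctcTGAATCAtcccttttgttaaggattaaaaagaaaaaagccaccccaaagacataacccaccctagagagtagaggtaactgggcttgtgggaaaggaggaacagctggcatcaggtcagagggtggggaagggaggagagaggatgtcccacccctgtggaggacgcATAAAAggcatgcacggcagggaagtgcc
Krt10: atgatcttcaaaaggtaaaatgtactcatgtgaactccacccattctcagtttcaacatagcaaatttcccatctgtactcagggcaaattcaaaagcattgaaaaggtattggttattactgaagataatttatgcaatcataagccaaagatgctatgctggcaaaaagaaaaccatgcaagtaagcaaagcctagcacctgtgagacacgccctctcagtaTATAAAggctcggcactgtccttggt
Krt73: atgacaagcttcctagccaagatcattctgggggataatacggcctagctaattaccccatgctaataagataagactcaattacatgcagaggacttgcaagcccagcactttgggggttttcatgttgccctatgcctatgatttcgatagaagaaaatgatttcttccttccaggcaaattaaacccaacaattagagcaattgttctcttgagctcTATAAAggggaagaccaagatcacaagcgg

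Krt7 held 4 Sp1 and 2 AP-2 matches, of which 1 of each overlapped, and an ATAAAA 7 bases before its start, Krt18 held an AP-2 match, Krt5 an ATAAAA 29 bases before the start, and Krt13 an AP-1 match and an ATAAAA 29 bases before the start. Krt10 and Krt73 held TATAAA 26 and 30 bases before the start. The windows shown do not cover every case. Krt71 of the root sheath rose and held TATAAA, and the epidermal keratins Krt2 and Krt9, without a call, held none. Over all keratins, TATAAA stood in 17 of 37 windows (45.9%), against 12.4% of 32851 windows of all genes. By call, it stood in 1 of 11 windows of keratins that were higher (that of Krt71), in 5 of 8 without a call and in 10 of 17 not tested. These 11 windows cover only 10 of the 16 keratins that were higher, since Krt13 has 2. Krt6a, Krt6b, Krt15, Krt17, Krt19 and Krt81 have no window, nor do Krt16, Krt74, Krt86 and Krt88 among those without a call. ATAAAA stood in 20 of 37 keratin windows (54.1%, against 17.0% of all), among them 4 of 11 of keratins that were higher, 4 of 8 without a call and 12 of 17 not tested. Sp1 letters were in 2 keratin windows (5.41%, against 32.7% of all), AP-1 letters in 2 (5.41%, against 6.75%) and AP-2 letters in 5 (13.5%, against 13.7%). These are counts of letters in a short window, and a window without a match says nothing of the factor.

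The 4 simple keratins of luminal cells rose by 9.49 to 17.0 times. Krt18 had scaled log2 signals of 6.19, 6.18 and 6.23 on the knockout arrays, against 2.74, 2.73 and 2.79 on the hetero arrays, a difference of 3.44 ± 0.03 (SE) or 10.9-fold (limma, adjusted p = 1.51e-07). Its type II partner Krt8 stood at 3.77, 3.77 and 3.78 in knockout and 0.53, 0.52 and 0.54 in hetero spheres (3.25 ± 0.02, 9.49-fold, adjusted p = 1.18e-07). In both genes each group spanned less than 0.1 units, and the genotypes were more than 3 units apart.

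Krt7, a type II keratin of ducts and glands, measured 2.58, 2.61 and 2.59 on knockout arrays and -1.08, -1.06 and -1.03 on hetero arrays (3.65 ± 0.02, 12.6-fold, adjusted p = 1.18e-07). Krt19, the short type I keratin that lacks a tail domain, measured 2.40, 2.33 and 2.38 in knockout and -1.74, -1.71 and -1.71 in hetero spheres and showed the largest rise of the family (4.09 ± 0.03, 17-fold, adjusted p = 1.23e-07). Krt20, the simple keratin of gut and bladder lining, was dim, at -3.99, -4.23 and -4.48 in knockout and -5.26, -4.09 and -4.36 in hetero spheres. Its difference of 0.34 ± 0.33 was within the spread between arrays (adjusted p = 0.421), and its 95% interval of -0.50 to 1.17 is wide.

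Among stratified keratins, the basal pair was high in both genotypes and higher in knockout spheres. Krt5 stood at 5.04, 5.06 and 5.07 in knockout and 2.62, 2.61 and 2.59 in hetero spheres (2.45 ± 0.02, 5.46-fold, adjusted p = 1.65e-07), and its dimmer second probe gave 2.66 ± 0.07. Krt14, its partner, stood at 4.70, 4.68 and 4.67 in knockout and 1.73, 1.73 and 1.70 in hetero spheres (2.97 ± 0.02, 7.81-fold, adjusted p = 1.25e-07). Neither gene's groups came within 2 units of each other. Krt15, a keratin of basal cells and of the hair follicle bulge, was dim: -2.24, -2.43 and -2.42 on knockout arrays, against -4.52, -4.89 and -4.06 on hetero arrays (2.13 ± 0.22, 4.36-fold, adjusted p = 0.000553). With normexp background correction the Krt15 difference was 0.73 and still passed.

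Of the keratins that epithelia add on wounding, Krt6a, Krt6b and Krt17 rose and Krt16 gave no call. Krt6a measured -0.32, -0.35 and -0.35 in knockout and -3.65, -3.38 and -3.35 in hetero spheres, 8.7-fold higher (3.12 ± 0.08, adjusted p = 3.58e-06). Krt6b measured 0.03, -0.01 and 0.01 in knockout and -2.84, -2.93 and -2.94 in hetero spheres, 7.54-fold higher (2.91 ± 0.03, adjusted p = 3.44e-07), and its dimmer probe gave 2.73 ± 0.07. Krt6a and Krt6b are close copies, and how far each probe also binds the other transcript was not tested. With normexp correction the differences were 2.00 for Krt6a and 2.10 for Krt6b.

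Krt17 was bright, at 3.85, 3.85 and 3.83 in knockout spheres and 1.87, 1.82 and 1.82 in hetero spheres (2.01 ± 0.02, 4.03-fold, adjusted p = 3.72e-07). Krt16, the usual type I partner of Krt6, measured 0.19, -0.02 and -0.03 on knockout arrays and 0.14, 0.13 and -0.02 on hetero arrays. The groups overlapped, the difference was -0.04 ± 0.08 (adjusted p = 0.702), and the 95% interval of -0.23 to 0.16 does not reach the rise of Krt6a.

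Krt13, a type I keratin of the suprabasal layers of mouth and esophagus, measured 1.06, 0.99 and 0.95 in knockout and -1.41, -1.24 and -1.36 in hetero spheres (2.34 ± 0.05, 5.05-fold, adjusted p = 2.18e-06), through 1 probe, since its second probe was below background on all 6 arrays. Its partner Krt4 was not tested: it was above background on 1 knockout array and 0 hetero arrays. Krt79, found in the mouse in the canal of the hair follicle and the sebaceous duct, measured 0.75, 0.75 and 0.77 in knockout and -0.92, -1.19 and -1.0 in hetero spheres (1.79 ± 0.07, 3.47-fold, adjusted p = 1.52e-05). Both genes thus separated the genotypes on every array.

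The tested keratins of cornifying epidermis gave no call. Krt10, made by suprabasal epidermal cells, measured -0.18, -0.19 and -0.28 in knockout and -0.13, -0.15 and -0.20 in hetero spheres (-0.05 ± 0.04, adjusted p = 0.271, interval -0.15 to 0.04). Its dimmer second probe had the other sign, also without a call (0.14 ± 0.15). Krt1, the partner of Krt10, was below background on all 6 arrays. Krt9, of palms and soles, measured -3.88, -4.09 and -4.00 in knockout and -4.02, -3.91 and -4.08 in hetero spheres (0.01 ± 0.07, adjusted p = 0.881). The groups of both genes overlapped.

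Krt2, another keratin of the upper epidermis, measured -0.77, -0.65 and -0.82 on knockout arrays and -0.10, -0.42 and -1.31 on hetero arrays (-0.14 ± 0.32, adjusted p = 0.732). Its hetero arrays spread over more than 1 unit, and hetero replicate 3 decided the call: without that array the difference was -0.49 (adjusted p = 0.0224). The second Krt2 probe was below background on all arrays. Krt12, Krt76, Krt77 and Krt78, the remaining stratified keratins, were not tested.

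**Figure D2:**
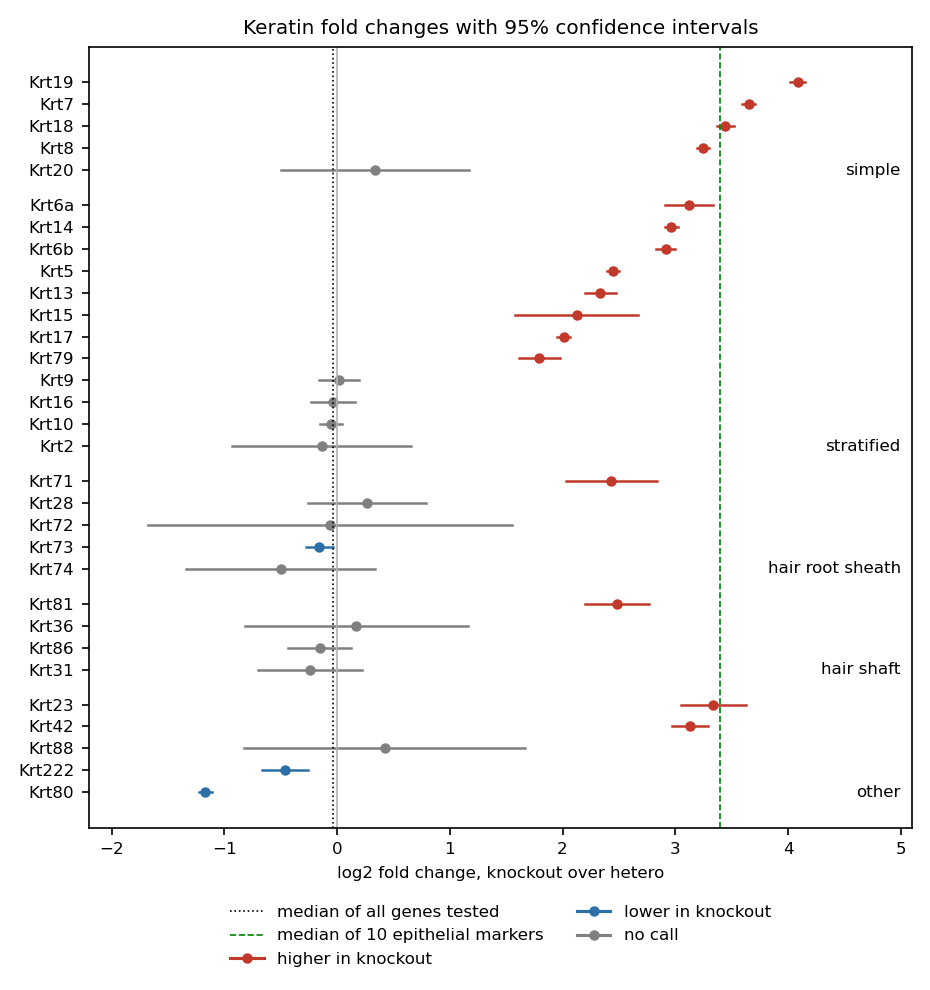
Log2 fold change, knockout over hetero, of the 31 tested keratins by class, with 95% confidence intervals as bars, calls in colour, and lines at the median of all genes tested (-0.03) and of 10 epithelial markers (3.397). The 16 rises run from 1.79 to 4.09 and the uncalled keratins surround 0.

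Most hair keratins were at or near background. Of 23 genes in the class, 14 were not tested: Krt25, Krt26, Krt27 and Krt75 of the root sheath, and Krt32, Krt33a, Krt33b, Krt34, Krt35, Krt39, Krt40, Krt82, Krt84 and Krt87 of the shaft. Among those tested, Krt81, a keratin of the hair cortex, measured -1.06, -0.99 and -1.03 in knockout spheres, against -3.57, -3.27 and -3.69 in hetero spheres (2.48 ± 0.11, 5.58-fold, adjusted p = 2.34e-05). Krt71, of the inner root sheath, measured -2.00, -1.94 and -2.11 in knockout and -4.36, -4.80 and -4.20 in hetero spheres (2.43 ± 0.16, 5.41-fold, adjusted p = 0.000102). These were the only hair keratins called higher, and with normexp correction their differences were 1.37 for Krt81 and 1.07 for Krt71.

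Krt86, which resembles Krt81 and lies next to it on chromosome 15, gave no call, with -2.56, -2.65 and -2.91 on knockout and -2.42, -2.62 and -2.62 on hetero arrays (-0.15 ± 0.11, adjusted p = 0.278). Krt31, a shaft keratin, measured -1.20, -1.09 and -1.53 in knockout and -1.32, -1.03 and -0.75 in hetero spheres (-0.24 ± 0.18, adjusted p = 0.299). Krt73, of the root sheath cuticle, was called lower by a margin of -0.16 ± 0.05 (adjusted p = 0.0319), from -0.07, -0.07 and -0.19 on knockout and 0.09, -0.01 and 0.07 on hetero arrays. That call depended on the arrays and the setting: it was lost in 5 of 6 fits that left out 1 array (adjusted p 0.0508 to 0.0923), among other settings, and the sign turned with spike-in scaling (0.26). Krt28, Krt36, Krt72 and the pseudogene Krt74 differed by -0.50 to 0.26 without a call.

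Outside the classes, Krt23, a type I keratin known for its induction by deacetylase inhibitors in human cancer cells, measured -0.44, -0.49 and -0.54 in knockout and -3.84, -3.61 and -4.04 in hetero spheres (3.34 ± 0.11, 10.1-fold, adjusted p = 8.65e-06; 2.04 with normexp). Krt42, a type I keratin of the mouse nail, measured 1.0, 0.97 and 1.01 in knockout and -2.26, -2.02 and -2.14 in hetero spheres (3.13 ± 0.06, 8.74-fold, adjusted p = 1.35e-06; 2.51 with normexp). Krt42 lies beside Krt17 and resembles it, and cross-binding of their transcripts was not tested. Their groups were over 3 units apart for Krt23 and about 3 for Krt42.

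Krt80, a type II keratin found at low level in many epithelia, went the other way and was the only keratin at least 2-fold lower in knockout spheres. It measured -0.49, -0.52 and -0.52 on knockout arrays, against 0.68, 0.63 and 0.66 on hetero arrays (-1.17 ± 0.02, 2.25-fold lower, adjusted p = 1.36e-06), and 3.51% of all genes were called at least 2-fold lower. The groups were tight and more than 1 unit apart. With spike-in scaling the difference was -0.75, short of 2-fold, and still passed.

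Krt222, an outlying member of the type I family, measured 4.85, 4.85 and 4.82 in knockout and 5.27, 5.47 and 5.16 in hetero spheres (-0.46 ± 0.08, adjusted p = 0.00494). Its call was lost with spike-in scaling (-0.04), and its second probe was below background on all arrays. Krt88 measured -4.17, -4.52 and -5.10 in knockout and -5.99, -4.75 and -4.32 in hetero spheres, overlapping groups without a call (0.42 ± 0.49, adjusted p = 0.495). Krt90 and Krt24 were not tested, Krt24 being above background on 2 knockout arrays and 0 hetero arrays. Of the 22 untested keratins, 16 were below background on every array with every probe.

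Along the chromosomes, the keratins that were higher stood partly in short runs. On chromosome 15, Krt6b, Krt6a, Krt5 and Krt71 are consecutive keratin genes and all were higher, as were the neighbours Krt8 and Krt18 at the end of the row. The next 4 after Krt71, namely Krt74, Krt72, Krt73 and Krt2, were not higher. Krt80 and Krt7, first and second in the row, moved in opposite directions. On chromosome 11, Krt13, Krt15 and Krt19 stand together, followed by Krt9, Krt14, Krt16, Krt17 and Krt42, in which Krt9 and Krt16 gave no call between neighbours that were higher. Order was taken from the RefSeq table on GRCm38.p6 and leaves out genes that are not keratins.

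**Figure D3:**
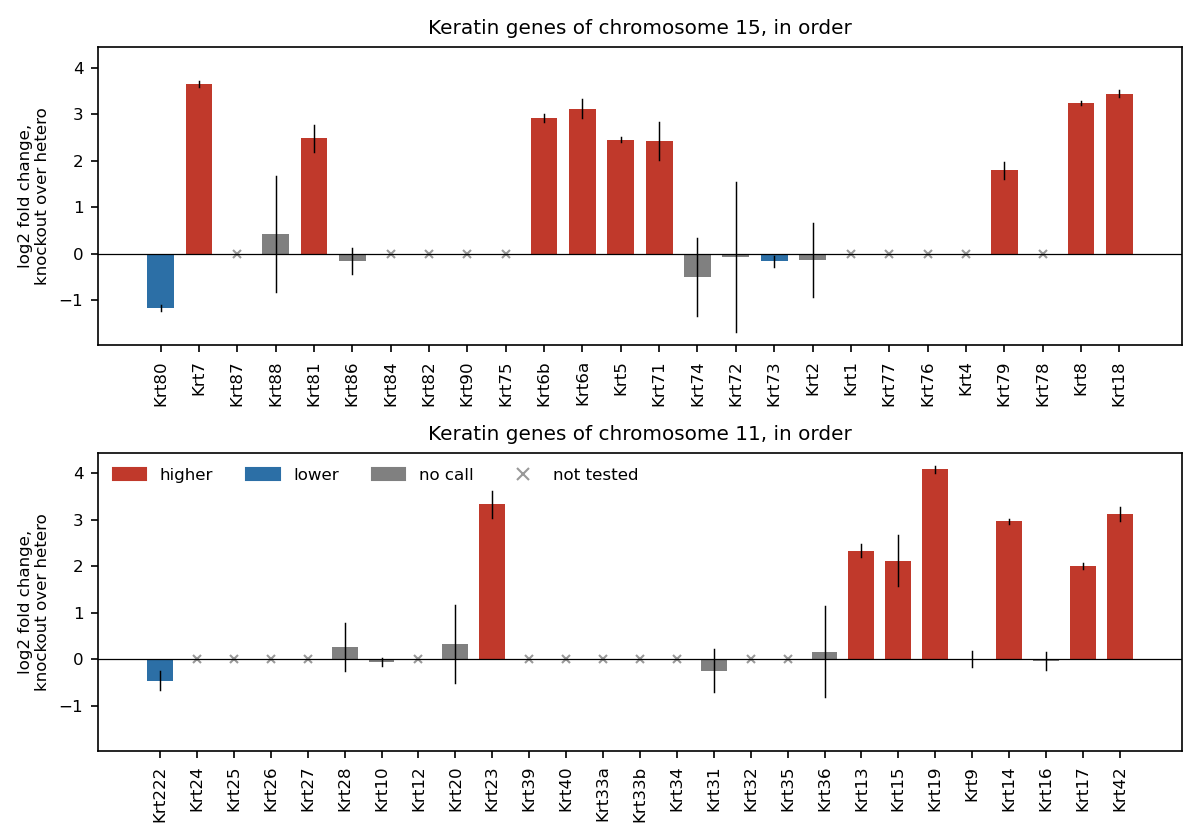
Log2 fold change, knockout over hetero, of keratin genes in their order on chromosomes 15 (26 genes) and 11 (27 genes), with 95% confidence intervals as thin lines and untested genes as crosses at 0. Bars of Krt6b, Krt6a, Krt5 and Krt71 form a run on chromosome 15, and Krt13, Krt15 and Krt19 one on chromosome 11.

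Partners of a filament were compared by their ratio. For 5 of 7 pairs both members were tested, and the type II over type I log2 ratio was compared within arrays, where 3 arrays against 3 cannot give an exact two-sided permutation p below 0.10. The ratio differed by -0.20 between knockout and hetero spheres for Krt8/Krt18 (-0.35 with normexp), by -0.43 for Krt7/Krt19 and by -0.52 for Krt5/Krt14. The probe of the type I member thus had the larger difference in each. Every ratio rests on 1 probe per gene, and probes of 1 gene also differed: 2.45 and 2.66 for Krt5, and 2.91 and 2.73 for Krt6b. For Krt6b/Krt17 it differed by 0.90, and by 0.10 with normexp correction. For Krt6a/Krt16 it differed by 3.16 (2.06 with normexp). SDs of the ratio were at most 0.11 in knockout and 0.23 in hetero spheres. The groups did not overlap in any of the 5 pairs, and each exact p was 0.10, also after adjustment over the 5. With 3 arrays against 3 these are the same fact. Single genes did not overlap in 68.9% of all genes tested, and no such share was taken for ratios. The pairs Krt1/Krt10 and Krt4/Krt13 could not be compared, because Krt1 and Krt4 were not tested.

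**Figure D4:**
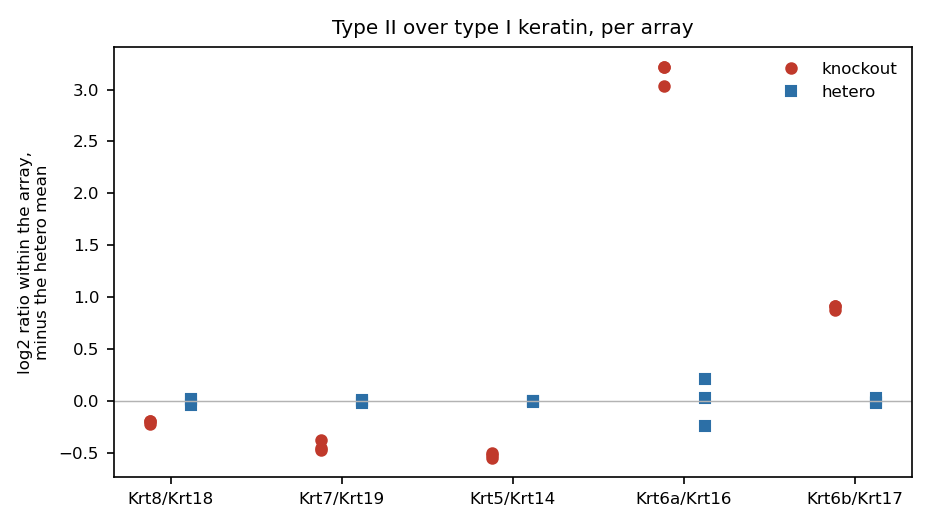
Log2 ratio of the type II over the type I keratin on each array for 5 filament pairs, less the hetero mean of the pair, with knockout arrays as red circles and hetero arrays as blue squares. Krt6a/Krt16 stands 3.16 above the hetero mean, while Krt8/Krt18 lies 0.20 below it.

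Genes of proteins that tie keratin filaments to cell junctions were mostly higher as well. Of 17 tested linker genes, 13 rose and 2 fell in knockout spheres, and the median log2 fold change was 1.59. Of all genes tested, 27.9% were higher and 32.5% lower. The genes of the plaque proteins plakophilin 1 (Pkp1), desmoplakin (Dsp) and plakophilin 2 (Pkp2) rose by 3.67 ± 0.03, 3.27 ± 0.03 and 2.71 ± 0.04 (SE). The epiplakin gene Eppk1, Fam83h and the hemidesmosome integrin gene Itga6 rose by 3.43 ± 0.06, 1.59 ± 0.03 and 1.01 ± 0.03. The gene of plectin (Plec), which also binds other filaments, rose by 0.11 ± 0.02. Dst and the gene of the keratin-binding Tchp fell by 0.25 ± 0.02 and 0.15 ± 0.02. The desmosomal cadherin gene Dsg3 was not above background on any hetero array and was at least 6.43-fold higher in knockout spheres (adjusted p = 0.000859), a bound taken against the dimmest signal counted as above background on each hetero array, or Dsg3's own signal where that was brighter. Adjusted p of the 6 genes named first was at most 3.38e-06.

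Of 14 tested intermediate filament genes other than keratins, 4 were higher (28.6%, against 27.9% of all genes) and 3 lower (21.4%, against 32.5%), with a median log2 fold change of -0.03. Calls in either direction were thus no more frequent here than among all genes (60.4%). The gene of vimentin (Vim), the filament of mesenchymal cells, differed by 0.03 ± 0.03 (adjusted p = 0.398), at 7.19 in knockout and 7.16 in hetero spheres. The nestin gene (Nes) rose by 1.94 ± 0.03, the desmin gene (Des) by 0.73 ± 0.02 and the neurofilament gene Nefm by 0.60 ± 0.06. The lens filament gene Bfsp1 fell by 0.71 ± 0.03 and the lamin genes Lmnb1 and Lmnb2 by 0.27 ± 0.02 and 0.25 ± 0.03. With spike-in scaling, which moved all genes up by 0.42 on the log2 scale, the linker and other filament genes split into 27 higher and 1 lower in place of 17 and 5. The same shift left 72.5% of all genes higher and 7.96% lower.

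**Figure D5:**
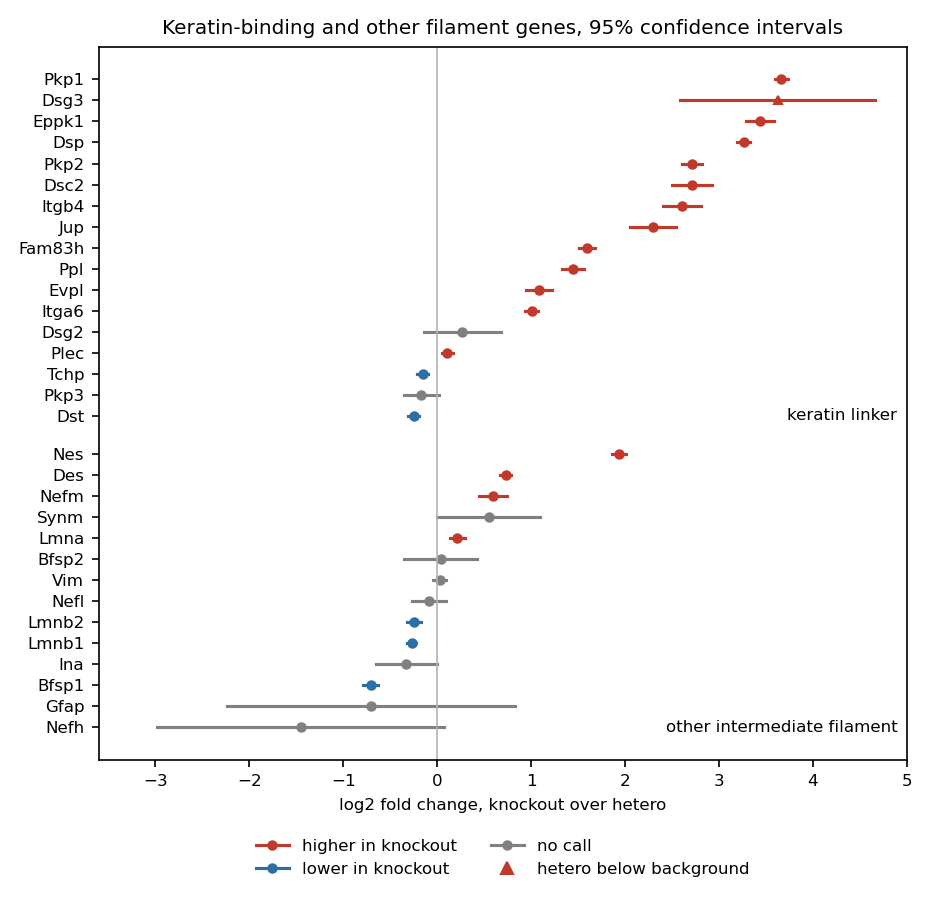
Log2 fold change, knockout over hetero, with 95% confidence intervals, of 17 keratin linker genes and 14 other intermediate filament genes. Linkers run from -0.25 to 3.67 and other filament genes from -1.45 to 1.94, and the triangle marks Dsg3, below background on all hetero arrays.

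Epithelial markers rose with the keratins, while all tested macrophage markers and most fibroblast markers were lower. Against 27.9% of all genes higher and 32.5% lower, all 10 epithelial markers rose in knockout spheres by a median of 3.397 on the log2 scale, and their summed signal, in units of the array's 75th percentile, was 36.5 to 36.8 on knockout arrays and 3.72 to 3.86 on hetero arrays. Epcam, an adhesion molecule of epithelial cells, rose by 3.74 ± 0.04, beside 3.25 to 4.09 for the 4 luminal keratins. Elf3 and Ocln were below background on all hetero arrays, and with them at their bounds the median was 3.32. All 9 tested macrophage markers were lower, with summed signals of 5.38 to 5.51 in knockout and 13.4 to 13.7 in hetero spheres (Adgre1 fell by 2.48 ± 0.03; Cd68 was not tested). Fibroblast markers were lower in 6 of 8 and higher in 1, at 1640 to 1700 in knockout and 2130 to 2350 in hetero spheres. Their median was -0.53 on the log2 scale, and 2 of the 8 were called at least 2-fold lower. Spike-in scaling moved all genes up by 0.42, and the marker lists were not counted under it. In RNA from whole spheres, more cells of a type and more RNA per cell cannot be told apart, and the part of cell composition in the keratin differences was not tested.

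The remaining marker lists held calls in both directions or few calls, to be read against the same shares of all genes (27.9% higher and 32.5% lower). Endothelial markers were higher in 1 and lower in 3 of 5 (sums 16.1 to 17.3 and 21.5 to 22.3 in knockout and hetero spheres), adipocyte markers lower in 1 of 3 (7.4 to 7.51 in knockout and 8.73 to 9.24 in hetero spheres) and lymphocyte markers higher in 1 and lower in 1 of 4 (5.16 to 5.66 in knockout and 6.78 to 7.25 in hetero spheres). Sums mostly follow the brightest probes of a list. The adipocyte sum follows Fabp4 (2.88 in knockout spheres), beside Adipoq (-4.56) and Plin1 (-4.64). The lymphocyte marker called lower was Cd3e (-0.56 ± 0.07). The one called higher was the dim Ms4a1, below background on all hetero arrays and at least 5.31-fold higher in knockout spheres. Markers of epidermal differentiation were higher in 4 and lower in 1 of 6 (5.80 to 5.90 in knockout and 3.74 to 3.94 in hetero spheres), with Flg, Dsg1a and Dsc1 not tested. Hair follicle markers were higher in 2 and lower in 2 of 5 (1.96 to 2.08 in knockout and 1.60 to 1.76 in hetero spheres). Of these, Padi3 rose by 3.14 ± 0.08 and Msx2 by 0.19 ± 0.06 (SE), while Tchh (-0.23 ± 0.06) and Gprc5d (-0.39 ± 0.12) were lower. S100a3 gave no call (0.10 ± 0.06). These genes were named after their values were seen, and Dsg4, Hoxc13 and Foxn1 were not tested. The part of hair follicle cells in the rises of Krt81 and Krt71 was not tested.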

How the data were processed

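Cy3-labelled total RNA of the spheres was read on 6 Agilent arrays of 1 colour, 3 for each genotype, per the labels. The submitters' processing notes name Agilent Feature Extraction 10.7.3.1. The deposited intensity values are spot signals on a linear scale, and for the processed signal used here the file headers record background subtraction and a spatial detrending fit, with no scaling between arrays seen in the values. A deposited series table of intensities (46598 probes) holds that signal over a constant for each array (402 to 484), within 1% for 100% of the probes spotted once. Its column medians were 0.163, 0.159 and 0.159 for knockout and 0.161, 0.159 and 0.169 for hetero replicates 1 to 3, so it is linear and not centred.

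Control spots (3671 of 62976) and spots with an outlier flag (102 to 129 per array) were left out, spots of a probe were averaged as log2, and each array's 75th percentile was subtracted. Probes were named by RefSeq accession through a table on GRCm38.p6, which named 27235 probes, and none of its coordinates beside the promoter windows are given, since the array header names another build. Probes well above background on at least 3 arrays (35427) were kept, and the brightest kept probe stood for its gene. Knockout and hetero arrays were set against each other in limma 3.58.1 (lmFit, eBayes; R 4.3.3) without covariates, with Benjamini-Hochberg adjustment over 15838 genes at a threshold of 0.05. The fit was tested on simulated data. Every keratin is accounted for. Values on each array are given for tested keratins that changed at least 2-fold or belong to no hair class, and for hair keratins with separate groups, to which Krt86 and Krt31 were added after their values were seen. Up to 6 genes with the smallest p were to be named in each of the linker and other filament lists, and linkers beyond these were likewise added. The members, classes and lists were chosen with earlier results of these data known.

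There was 1 slide and 1 scan. Each slide column held a single genotype, so column and genotype cannot be told apart. The 3 arrays per group limit the precision.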

Additional observations from a re-analysis of the deposited data

How the results depend on the processing

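Over 18 alternatives, the same 16 keratins were higher in knockout spheres in each, joined by 5 more (21 in all) with spike-in scaling: quantile, median or spike-in scaling, normexp background correction, no filter, probes above background on all 6 arrays, mean of probes, outlier spots kept, a trended prior, the deposited table, replicate numbers or slide row as a block, and 6 fits that each left out 1 array. Normexp was run on the median signal, a choice made after seeing the files, which hold no mean signal, and its offset of 50 shrinks dim genes by construction. Keratins called lower numbered 3, against 1 with spike-in scaling and 5 with normexp, and 2 to 3 without 1 array. The keratin median of 1.79 was 1.81 with median scaling, 2.21 with spike-in scaling, 0.73 with normexp, 0.21 without a filter (over all 53 genes), 2.33 for keratins above background on every array, and 1.72 to 1.85 without 1 array. Linker and other filament genes numbered 27 higher and 1 lower with spike-in scaling, against 17 and 5. That scaling called 72.5% of all genes higher and 7.96% lower, against 27.9% and 32.5%, and turned the sign of Krt10 (0.37), Krt16 (0.38) and Krt73 (0.26). Krt9 turned to -0.12 with normexp. These 4 changes ended in a call, and 20 further sign changes, over the alternatives together and without a call on either side, fell on keratins such as Krt2, Krt31, Krt72 and Krt86 (spike-in scaling) or Krt20, Krt28, Krt36 and Krt88 (normexp). The causes of these changes, other than the added shift and the offset, were not tested. With replicate numbers as a block (paired fit), 16 keratins were higher and 2 lower. Arrays of equal number did not deviate together (correlations of -0.12, -0.02 and -0.01), so the numbers are not taken to pair the samples. Dim keratins such as Krt72 (SE 0.64) are limited by signal over background.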
